A study of Rattus norvegicus with 6 samples.

Results

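Ribosome biogenesis factors are the proteins that process, modify and assemble ribosomal RNA (rRNA) and ribosomal proteins into the subunits of the ribosome, without becoming part of the finished ribosome. The set described here held 38 genes named by function. A probe set, the group of probes on an Affymetrix array that measures 1 transcript, was taken for a member when the platform annotation gave that gene symbol alone. This found 48 probe sets for 37 of the 38 genes, out of 31042 probe sets and 14217 genes in all. Npm1, nucleophosmin, was the member without such a probe set, since its probe sets are shared with the symbol of a pseudogene. No RNA polymerase subunit was included.

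The cultures were of neuronal progenitor cells, which divide and give rise to neurons and glia, from the cerebral cortex of rat embryos at E15.5. All were grown on fibronectin with 20 ng/ml bFGF, a mitogen that keeps them in division. For 48 h they were given 1 µM corticosterone, the stress hormone of the rodent adrenal gland, or DMSO alone as vehicle. RNA of 6 samples, 3 per treatment, went onto 1 array each, and the samples form 3 couples of 1 vehicle and 1 corticosterone sample. The labels name no separate cultures, litters or animals behind the couples, so every p-value measures only the spread between these samples, which may be technical. The cells were not sorted, and fewer cells of a type cannot be told apart here from less RNA per cell.

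Building a ribosome starts in the nucleolus, where one long rRNA precursor is transcribed and loaded with factors. Factors of the small-subunit processome fold and cut the part that becomes the small subunit. Large-subunit factors do the same for the other part, and small nucleolar ribonucleoproteins (snoRNPs) use guide RNAs to methylate or pseudouridylate chosen nucleotides. Dividing progenitors make many ribosomes, and the transcription factor Myc, which binds the E-box CACGTG, is known to activate many of these genes.

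Stretches around or before the start of 4 members are printed because 14 members carried the E-box in their promoter window. They are the 4 members with the largest change among those that hold the motif, read from the RefSeq promoter table of build GRCr8, 5′ to 3′ on the strand of the gene, with the E-box in capitals. The Rrp12 stretch is chr1:250655310-250655375 (minus strand), with the motif 3 bases after the annotated start. The Dkc1 stretch is chrX:157751407-157751502 (plus strand), with the motif 184 bases before the start. The Rpf2 stretch is chr20:45205984-45206053 (minus strand) and the Utp4 stretch is chr19:51702156-51702240 (plus strand), with the motif 10 and 25 bases before the start.
Rrp12: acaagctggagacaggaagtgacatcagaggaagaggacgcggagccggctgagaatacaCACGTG
Dkc1: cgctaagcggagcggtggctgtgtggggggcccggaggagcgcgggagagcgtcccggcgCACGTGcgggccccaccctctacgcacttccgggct
Rpf2: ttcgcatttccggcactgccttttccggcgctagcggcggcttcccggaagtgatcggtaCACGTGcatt
Utp4: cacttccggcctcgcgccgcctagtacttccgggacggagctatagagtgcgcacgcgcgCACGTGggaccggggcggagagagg

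The promoter table held 35 of the 38 members, and Rrs1, Wdr43 and Bop1 were not matched. Of these 35 windows, which run from 250 bases before to 50 bases after the start, 14 (40%) held CACGTG, a motif that reads the same on both strands. The share was 6.42% of all 33469 promoters in the table, 7.02% of the protein-coding ones and 10.02% of the 8357 matched genes tested on the array. A copy began within 50 bases of the start in 12 of the 35 members (34.3%), against 316 of the 8357 array genes (3.78%). By class, 6 of 14 small-subunit, 6 of 10 large-subunit and 2 of 8 snoRNP members held it, and Ncl, Ddx21 and Npm1 did not. The palindromic consensus glucocorticoid response element was searched on both strands with any base in its spacer. It was in 0 of the 35 windows and in 5 of the 33469. As 0 of the 21851 protein-coding windows and 0 of the 8357 array genes held it, its absence does not set the members apart. These matches describe letters in a window and show no binding.

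Corticosterone-treated cells had lower transcript levels of most ribosome biogenesis factors. The members were chosen with earlier results of these data known, so the shares below are not independent evidence about the pathway. Of the 37 factors measured, 31 fell, 0 rose and 6 did not pass at a limma adjusted p under 0.05 (Benjamini-Hochberg over all 18625 probe sets tested), while 7.77% of the 9910 genes tested fell and 11.7% rose. At an unadjusted p under 0.05 in limma 34 members were lower, against 16.6% of all genes, and 0 were higher. All 37 passed the filter on low signals, with group means from 337 to 12510 (arbitrary MAS5 signal units). All 37 log2 fold changes were negative, as were 50.3% of those of all genes, and lay between −0.60 and −0.03 with a median of −0.34, against −0.002 for all genes tested. As a ratio of geometric means the falls were between 13.0% and 35.2% among the members that passed.

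The direction repeated between couples. The corticosterone array was the lower one for 35 of 37 members in couple 1, 36 in couple 2 and 37 in couple 3, against 48.9%, 49.6% and 51.3% of all genes. For 35 members it was lower in all 3 couples, as for 27.2% of all genes. The groups did not overlap for 31 members, that is, all 3 corticosterone signals lay under all 3 vehicle signals, against 11.4% of all genes. These 31 are not the 31 that passed: 28 are in both sets, Imp3, Nop2 and Nip7 passed with overlapping groups, and Utp20, Bysl and Rrp1 did not pass although their groups were apart. Couple 2 had the largest drop for 29 of the 37 members, with a median difference of −0.44, against −0.30 in couple 1 and −0.28 in couple 3. Couple 2 also stood apart in the fibroblast markers Col1a1, Col1a2, Col3a1 and Lum. Its vehicle and corticosterone arrays gave Col3a1 signals of 577 and 928, against 40.8 to 94.1 on the other arrays. Lum, under the filter, had 136 and 143, against 0.483 to 2.66. Dcn and Pdgfrb, also under the filter, did not set it apart. Dcn had 17.4 and 23.7, against 1.26 to 34.5, and Pdgfrb 32.1 and 24.7, against 6.47 to 32.4. Vehicle Pdgfra was 538 in couple 2 and 2892 and 2970.2 in couples 1 and 3. The part of what these markers reflect in the drops was not tested. Without couple 2, 36 of the 37 members were still negative, while the median log2 fold change of all genes was 5.4e-04. The coefficient of variation of a member had a median of 7.20% over the vehicle arrays, reaching 19.4% for Imp3, and a median of 10.6% over the corticosterone arrays.

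**Figure D1:**
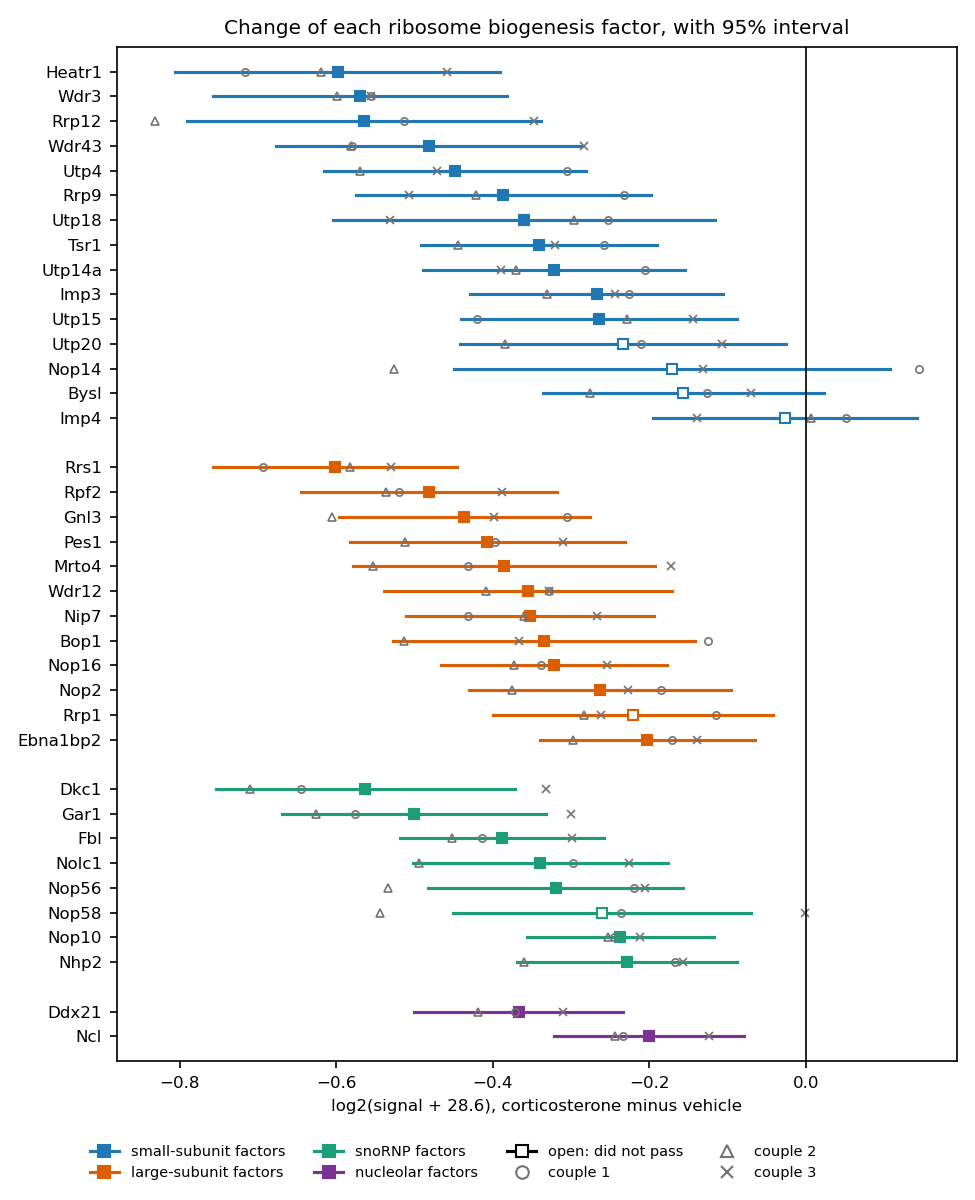
Change of each of the 37 factors on the x axis, as log2(signal + 28.6) with corticosterone minus vehicle, grouped by class. Squares with bars are limma estimates with 95% intervals (filled, passed as lower; open, did not pass) and grey marks are the 3 couples; all squares lie left of 0, from −0.60 for Rrs1 to −0.03 for Imp4.

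The call depended on the couple being a term of the model. Without it 2 members, Heatr1 and Rrs1, passed (0.363% of all genes fell there), the other 29 had a limma adjusted p from 0.052 to 0.52, and 30 of the 37 were lower at an unadjusted p under 0.05, against 7.33% of all genes. Without couple 2, 10 members passed: Heatr1, Utp4, Wdr3, Rrs1, Gnl3, Rpf2, Fbl, Dkc1, Gar1 and Ddx21, with 2.69% of all genes lower. When the variance was not modelled along intensity, 5 passed, namely Heatr1, Wdr3, Rrs1, Rpf2 and Dkc1, with 1.78% of all genes lower. Without couple 1, 22 members passed against 3.95% of all genes, and without couple 3, 23 against 6.85%. With no filter on low signal 21 passed, against 2.88% of all genes.

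Other settings moved the count of members less. It was 28 with quantile normalization (7.58% of all genes lower), 30 with a pseudocount of 1 (7.68%) and 31 with a pseudocount of 100 (7.83%). With a stricter filter it was 31 (9.76%), and with the mean of a gene's probe sets 31 (6.88%). No member passed as higher under any of the 12 settings. Of all genes 2.63% passed as higher without the couple, 7.35%, 5.5% and 11.6% without couples 1, 2 and 3, 8.36% with arrays centred on their median and 11.0% with quantile normalization. The share was 11.5% and 11.8% with the lower and the higher pseudocount, 5.83% and 11.3% with no filter and the stricter one, 6.29% without the intensity trend and 11.3% with the mean of probe sets.

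**Figure D2:**
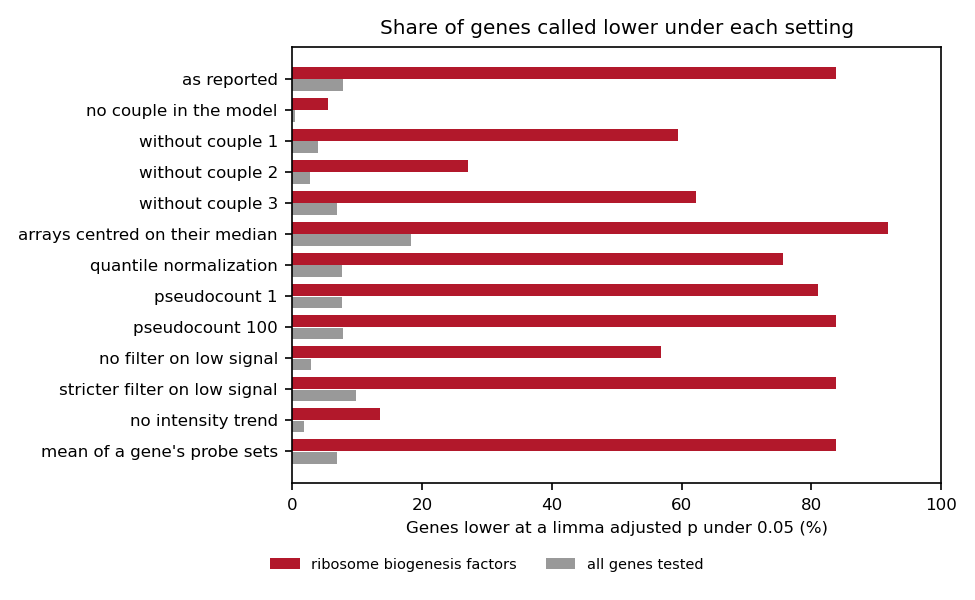
Share of genes called lower (x axis, percent, limma adjusted p under 0.05) among the 37 factors (red) and among all genes tested (grey), for the reported setting and 12 others. The red bar exceeds the grey one under each of them, and it is shortest with no couple in the model, at 2 of 37 factors.

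The median signal was 108 to 122 on the vehicle arrays and 124 to 134 on the corticosterone arrays, and was higher with corticosterone in each couple. Centring each array on its median moved the median log2 fold change of all genes to −0.11, and 34 members then passed as lower against 18.3% of all genes. Actb gave a 3′ over 5′ ratio, which rises as RNA degrades, of 1.55 to 2.12 with vehicle and 1.76 to 2.03 with corticosterone. Of the progenitor markers all 9 with a probe set were above background on every array, Nes and Slc1a3 rose, and their summed signal was 67147 to 82995 with vehicle and 79640.4 to 88253 with corticosterone. Of 5 astrocyte markers 2 were tested and S100b rose, with a summed signal of 240.2 to 329 and then 793 to 988. Aqp4 and Slc1a2 lay at background on some arrays. Of 5 neuronal markers Tubb3 fell, from a mean of 329 to 218. Their summed signal, mostly that of Map2, was 9437 to 10340.1 and then 6939 to 10381. Of 4 oligodendrocyte lineage markers tested Pdgfra fell, from a mean of 2134 to 616. Summed signals over 5 markers, mostly that of Olig1, were 19956 to 24470.1 and then 16681 to 23040.3. Of 3 meningeal or fibroblast markers tested Col1a2 rose, with summed signals over 6 markers of 96.9 to 1432 and then 162 to 2154. Of 5 microglial markers 2 were tested and 0 passed, with 162 to 176 and then 199.7 to 227 and Itgam at background on all arrays. No endothelial marker passed the filter, with 50.1 to 111 and then 94.0 to 156. Their part in the falls of the biogenesis factors was not tested.

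Small-subunit factors fell in 11 of 15 cases, against 7.77% of all genes. Their median log2 fold change was −0.34, with a range from −0.60 to −0.03. Heatr1, Utp4, Utp15 and Wdr43 of the early complex that binds the nascent precursor fell, as did Utp18 and Wdr3 of another early complex. Further subunits of these complexes lie outside the set: Wdr75 and Wdr36 fell (−0.39 and −0.31), while Nol11, Pwp2, Tbl3 and Utp6 did not pass (−0.07, −0.18, −0.13 and −0.12). Proteins of late particles, Rrp12 and Tsr1, were among them too.

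The HEAT-repeat protein gene Heatr1 (probe set 1383685_at), of the early complex, had signals of 783, 802 and 778 with vehicle and 465, 512 and 558 with corticosterone in couples 1, 2 and 3. The vehicle arrays lay close together and the corticosterone arrays all lay below them. The log2 fold change was −0.60 ± 0.09 (SE, n = 3 couples; limma adjusted p = 0.0015). Every SE given here is the moderated one of limma. It borrows variance from other probe sets and is not the spread of the 3 couple differences alone. Wdr3 (1374793_at), a WD-repeat protein of the small-subunit processome, had signals of 1102, 815 and 795 with vehicle and 741, 528 and 532 with corticosterone. Couple 1 was the higher couple under each treatment, and the drop was alike in all 3 couples at −0.56, −0.60 and −0.56 (−0.57 ± 0.09, SE; limma adjusted p = 0.0011). Rrp12 (1383675_at), which takes part in maturation and export of pre-ribosomes, had signals of 980.3, 1036 and 879.9 with vehicle and 678, 569.6 and 685 with corticosterone. The groups stood apart, with the largest drop in couple 2 (−0.56 ± 0.10, SE; limma adjusted p = 0.0036).

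The other small-subunit factors that fell did so by less. Wdr43 and Utp4 had log2 fold changes of −0.48 and −0.45, and Utp15 of the same early complex −0.26 (limma adjusted p = 0.047). Rrp9, a protein of the U3 snoRNP that guides the early cuts, changed by −0.39 and Utp18 by −0.36 (limma adjusted p = 0.049). Tsr1, a GTPase-like protein of late small-subunit precursors, changed by −0.34, and Utp14a, which activates a processome helicase, by −0.32. Imp3 and Imp4 sit together on the U3 RNA, and of these Imp3 passed and Imp4 did not. Imp3 fell by 0.27 on the log2 scale (limma adjusted p = 0.031). Imp4 had signals of 1361, 1249.7 and 1444 with vehicle and 1412, 1256 and 1309 with corticosterone, so the groups overlapped and 2 of the 3 couples were slightly higher (−0.03 ± 0.08, SE, 95% interval −0.20 to 0.14; limma adjusted p = 0.86). A second Imp4 probe set stood at −0.21 (limma adjusted p = 0.25), and the difference between Imp3 and Imp4 was not tested. Utp20, Nop14 and Bysl, which act in small-subunit assembly, did not pass either, with values of −0.23, −0.17 and −0.16. Nop14 was higher with corticosterone in couple 1 (0.14) and lower in couple 2 (−0.53).

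Large-subunit factors fell in 11 of 12 cases, against 7.77% of all genes. Their median was −0.35, with a range from −0.60 to −0.20. Rrp1 was the member that did not pass (−0.22, limma adjusted p = 0.093).

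Rrs1 (1376065_at), which with Rpf2 brings a small rRNA and its bound proteins into the large-subunit precursor, had signals of 2435, 2157 and 2297 with vehicle and 1494, 1431 and 1582 with corticosterone. The groups were far apart beside the spread within them, and the change was close to that of Heatr1 (−0.60 ± 0.07, SE; limma adjusted p = 2.5e-04). Its partner Rpf2 (1392514_at) had signals of 1789, 1521 and 1734 and then 1239, 1039 and 1318, lower on each corticosterone array (−0.48 ± 0.07, SE; limma adjusted p = 0.0014). Gnl3 (1388953_at), nucleostemin, a nucleolar GTP-binding protein abundant in stem cells, had signals of 3595, 3390.2 and 3049 with vehicle. With corticosterone they were 2905, 2218 and 2306, again without overlap (−0.44 ± 0.07, SE; limma adjusted p = 0.0023).

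Pes1, Wdr12 and Bop1 form a trimer needed to process the large-subunit rRNA, and all 3 fell, with log2 fold changes of −0.41, −0.36 and −0.33. The couples lay furthest apart for Bop1, at −0.12 in couple 1 and −0.51 in couple 2. Mrto4, which holds the place of a stalk protein on the precursor, changed by −0.39, and Nip7, a pre-rRNA processing protein, by −0.35. Nop16 changed by −0.32, and Nop2, an rRNA methyltransferase, by −0.26. Ebna1bp2 lay closest to the threshold (−0.20 ± 0.06, SE; limma adjusted p = 0.04995), and its call ended under 8 of the 12 other settings.

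SnoRNP factors fell in 7 of 8 cases, against 7.77% of all genes. Their median was −0.33, with a range from −0.56 to −0.23. The H/ACA type, which pseudouridylates RNA, has the core proteins Dkc1, Gar1, Nhp2 and Nop10, and all 4 fell. The C/D type, which methylates RNA, has Fbl, Nop56 and Nop58, of which Fbl and Nop56 fell.

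Dkc1 (1368649_at), dyskerin, the pseudouridine synthase, had signals of 1628, 1824 and 1924 with vehicle and 1031, 1103 and 1522 with corticosterone. The groups stood apart, with a smaller drop in couple 3 (−0.33) than in couples 1 and 2 (−0.65 and −0.71), and the log2 fold change was −0.56 ± 0.09 (SE; limma adjusted p = 0.0013). Gar1 (1374857_at), of the same particle, had signals of 3431.5, 2911 and 2816 and then 2293, 1876 and 2281. Couple 3 again had the smallest drop (−0.50 ± 0.08, SE; limma adjusted p = 0.0013). Their partners Nop10 and Nhp2 changed by −0.24 and −0.23 (limma adjusted p = 0.013 and 0.033), with 95% intervals of −0.36 to −0.12 and −0.37 to −0.09. The interval of Dkc1 was −0.75 to −0.37, and the difference between these partners was not tested.

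Fbl (1388528_at), fibrillarin, the rRNA methyltransferase, had signals of 8349, 7549 and 7497 with vehicle and 6260.4, 5508 and 6091 with corticosterone. Every corticosterone array lay below every vehicle array (−0.39 ± 0.06, SE; limma adjusted p = 0.0012). Nop56 changed by −0.32 (limma adjusted p = 0.014). Nop58 had signals of 6399, 8799 and 7929.8 with vehicle and 5430.3, 6025 and 7927 with corticosterone, so that couple 3 hardly differed and the groups overlapped (−0.26 ± 0.09, SE; limma adjusted p = 0.066). Without couple 3 Nop58 did pass (limma adjusted p = 0.015). Nolc1, a nucleolar chaperone of both snoRNP types, was measured by several probe sets. On the brightest, signals were 2562, 2387 and 2312 with vehicle and 2079, 1686 and 1973 with corticosterone (−0.34, limma adjusted p = 0.010). The next brightest (1368031_at, vehicle mean 1985) stood at −0.15 with overlapping groups and did not pass (limma adjusted p = 0.20). A dimmer one (1368033_at) passed at −0.36 (limma adjusted p = 0.041).

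Of the general nucleolar proteins both that were measured fell, against 7.77% of all genes. Ncl (1398832_at), nucleolin, which binds the nascent precursor, had signals of 11837, 12975 and 12717 with vehicle and 10064.5, 10955 and 11667 with corticosterone. This was the smallest change that passed, and the groups still did not overlap (−0.20 ± 0.06, SE; limma adjusted p = 0.031). The helicase gene Ddx21 (1375901_at) had signals of 4613, 4919 and 4793 and then 3559, 3672 and 3859. On this probe set the drop was alike in the 3 couples (−0.37 ± 0.06, SE; limma adjusted p = 0.0021). The dimmer Ddx21 probe set (1396187_at) differed by −0.03, −0.32 and −0.62 in couples 1, 2 and 3, with overlapping groups, and did not pass (limma adjusted p = 0.058).

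**Figure D3:**
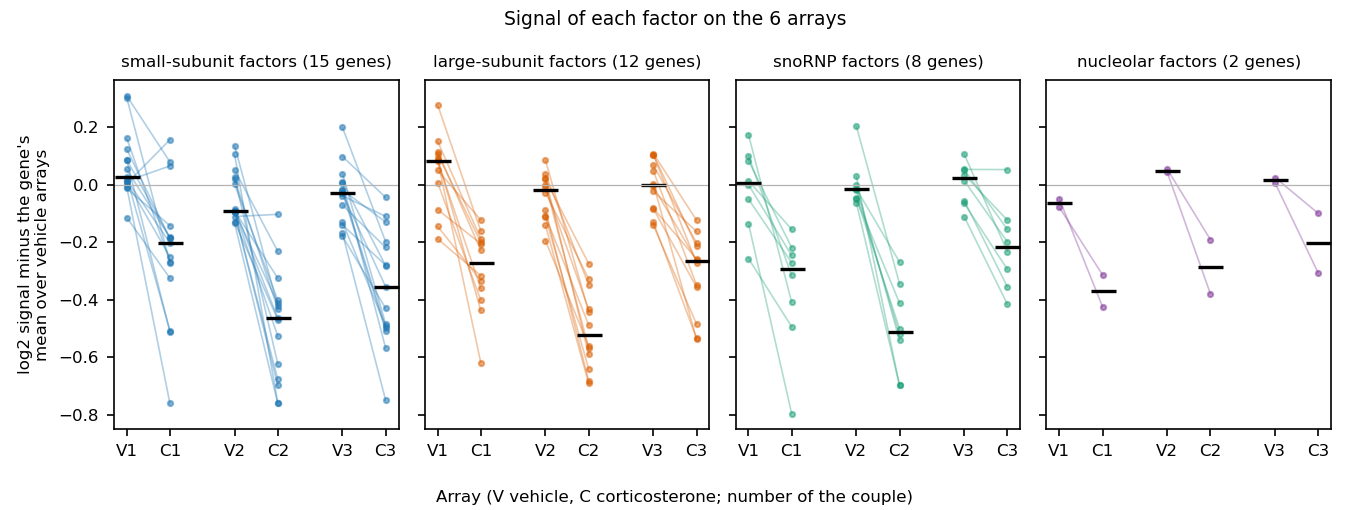
Signal of each factor on the 6 arrays (y axis, log2 signal minus the gene's mean over the vehicle arrays; x axis, array by couple, V vehicle and C corticosterone), with 1 panel per class. Each line joins the arrays of a couple for 1 gene and black bars are class medians; the corticosterone median lies below the vehicle median in every couple and class, and the second corticosterone array is lowest of the 6 for 29 of the 37 genes.

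The classes could be set side by side only by their values, since no test was run between them. The median log2 fold changes of the small-subunit, large-subunit and snoRNP classes differed by little, at −0.34, −0.35 and −0.33. Their medians by couple were −0.25, −0.42 and −0.32 for small-subunit factors, −0.33, −0.46 and −0.29 for large-subunit factors and −0.27, −0.51 and −0.22 for snoRNP factors. Couple 2 had the largest drop in each class. The small-subunit class held 4 of the 6 members that did not pass.

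Of the members 8 had several tested probe sets, and all 47 tested probe sets had a negative log2 fold change. Of these 35 passed as lower and 0 as higher, against 6.45% of all probe sets lower. Every tested probe set passed for Mrto4 and Nop56, some did for Utp15, Wdr43, Rrp12, Nolc1 and Ddx21, and none did for Imp4. Nop56 changed by −0.53 on its dimmer probe set against −0.32 on its brighter one. Rrp12 gave −0.56, −0.48 and −0.25. A further Nolc1 probe set (1382893_at) lay below the filter, with signals of 30.5, 46.3 and 27.4 with vehicle and 58.9, 44.4 and 27.1 with corticosterone, higher in couple 1 only.

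Other genes of the pathway, on 3 lists of 102 factors outside the set, also had mostly negative values. Like the members, they were listed with earlier results of these data known. Of 97 tested, 30 (30.9%) fell, 0 rose (0 also at an unadjusted p under 0.05 in limma) and 67 did not pass, beside 83.8% of the members and 7.77% of all genes that fell, with no test between these shares. They had a median log2 fold change of −0.22 and 90 negative values. By list, 13 of 42 small-subunit genes, 13 of 47 large-subunit genes and 4 of 8 snoRNP genes fell. The largest drops were those of Mdn1, a giant ATPase that remodels large-subunit precursors (−0.68 ± 0.09, SE; limma adjusted p = 5.5e-04), and Nle1, its docking partner (−0.60, limma adjusted p = 0.0053). Rrp15 of the large subunit changed by −0.59 and Aatf of the small-subunit processome by −0.59 (limma adjusted p = 0.0068 and 0.0012). Mdn1 had signals of 1438, 1259.65 and 1208 with vehicle and 913, 672 and 838 with corticosterone, without overlap. The largest positive value was that of Efl1, a GTPase that releases an anti-association factor (0.26, limma adjusted p = 0.30). Without the couple in the model 2 of the 97 passed, Mdn1 and Aatf, and without couple 2 5 did, Nle1 and Rrp15 not among them (limma adjusted p = 0.067 and 0.093).

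**Figure D4:**
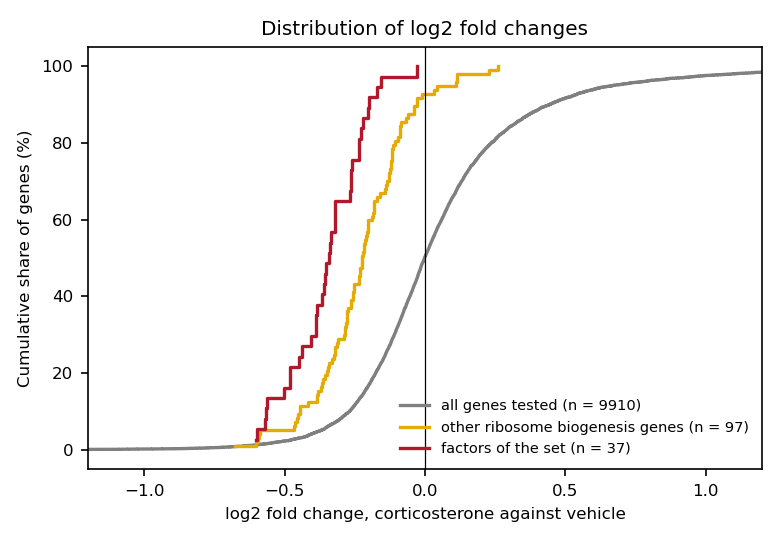
Cumulative share of genes (y axis, percent) at or under a given log2 fold change (x axis) for the 37 factors (red), the 97 other biogenesis genes (yellow) and the 9910 genes tested (grey), drawn from −1.2 to 1.2. The red curve has its median at −0.34 and the yellow one at −0.22, both left of the grey curve, which crosses 50% near 0.

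Regulators of the pathway were given as a list of 13 genes, of which 12 were tested, 3 fell, 1 rose and 8 did not pass. Of all genes tested 7.77% fell and 11.7% rose. Myc (1368308_at) had signals of 2699, 2004 and 2176 with vehicle and 1492, 939 and 1445 with corticosterone, lower on every array and in every couple (−0.83 ± 0.09, SE; limma adjusted p = 1.6e-04). Mycn, its relative in neural progenitors, had signals of 414, 412 and 312 and then 413, 316 and 197, overlapping between groups (−0.32 ± 0.13, SE; limma adjusted p = 0.13). Max, the partner of Myc, fell by 0.37 on the log2 scale and Mxd4, which competes with Myc for Max, rose by 0.52 (limma adjusted p = 0.0039 and 0.0045). Taf1d, of the factor that recruits RNA polymerase I, fell by 0.54 (limma adjusted p = 5.6e-04). Ubtf and Rrn3, which start rRNA transcription, had values of −0.13 and −0.16 and did not pass. Without the couple in the model Taf1d passed and Myc, Max and Mxd4 did not (limma adjusted p = 0.061, 0.087 and 0.12), and without couple 2 Max and Mxd4 did not (0.051 and 0.065). Whether the change of Myc or Max bears on the biogenesis factors was not tested.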

How the data were processed

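The 6 samples each gave 1 Affymetrix array. The authors deposited 1 signal intensity per probe set and array, made with MAS5, per the submitters' processing notes; no version or settings of MAS5 were found in the labels. After trimming 2% of probe sets at either end, every array had a mean of 500.2. Oligo(dT) priming, per the labels' protocols, weights signal towards the 3′ end. Of 31099 probe sets 57 controls were left out, and 20826 of the rest had 1 symbol, 436 several and 9780 none; 0 symbols changed through Entrez identifiers (GRCr8 gene table).

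Signals were taken to log2(signal + 28.6), the pseudocount being the 25th percentile of all values, which makes changes of dim genes look smaller. Dropping the dimmest 40% by mean log2 signal (under a signal of 63.6) left 18625 probe sets, fitted by limma 3.58.1 under R 4.3.3 (eBayes with intensity trend, treatment and couple as terms), with two-sided Benjamini-Hochberg adjusted p-values and a threshold of 0.05. The test was tried on simulated data with 200 of 18625 probe sets changed. Of changes of 0.5 on the log2 scale 13% passed, and of changes of 1 63%, with 1.30% of calls false. These rates need not hold here, where 1202 probe sets passed as lower. The changed probe sets were drawn at random from all those tested, dim ones included. Noise was drawn from each probe set's own residual spread, so the rates do not describe the members. A member that did not pass may still have changed. The brightest probe set stood for a gene, 9910 genes in all. Background, 22.8, was the 95th percentile of 27 bacterial controls.

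The series text calls the samples couples and the titles number them. Deviations from group means correlated by 0.57, 0.52 and 0.35 between same-numbered samples and by −0.48 to 0.003 otherwise (across probe sets, which are not independent); deviations within a group sum to 0, so part of this contrast is arithmetic.

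Members and lists were chosen with earlier results of these data known. Values on every array are given for the 3 members of each class with the largest absolute change, the general nucleolar proteins, members whose probe sets disagree, and Myc and Mycn; array values of Imp4, Nop58 and Mdn1, and the names Wdr75, Wdr36, Nol11, Pwp2, Tbl3, Utp6, Efl1, Max, Mxd4, Taf1d, Ubtf and Rrn3, were added after their values were seen. At most 4 other pathway genes per direction were to be named, the largest past the threshold.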

Additional observations from a re-analysis of the deposited data

How the results depend on the processing

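Each result was recomputed under 12 other settings: the model without the couple, each couple left out, 2 other scalings, 2 other pseudocounts, 2 other filters, no intensity trend, and the mean of a gene's probe sets. The count of 31 members lower became 2 without the replicate block (the couple as a term), 5 without the intensity trend, and 10 to 23 with a couple left out, fewest without couple 2. It was 21 to 34 under the other settings, and 0 members were higher under any. The count of 30 other pathway genes lower became 2 without the block, 5 without the trend, 58 with arrays centred on their median, and 5 to 27 with a couple left out. It was 20 to 34 under the rest. Leaving out a couple leaves 1 residual degree of freedom for each probe set. The causes of the other shifts in these counts were not tested. With arrays centred on their median the class medians were −0.45 for small-subunit, −0.46 for large-subunit, −0.44 for snoRNP and −0.39 for nucleolar factors. Centring moves the log2 fold change of every gene by the same amount, so no class shifted more than another. The shift was past 1 SD of the couples in each class but snoRNP, whose SD was the largest (0.16). All 37 members stayed negative under the settings run, except Nop14 (−0.33 to 0.0065 with a couple left out, positive without couple 2) and Imp4 (−0.066 to 0.029, positive without couple 3), neither of which had passed. Heatr1 and Rrs1 passed under all 12 settings, and Wdr3, Rpf2 and Dkc1 under all but the model without the couple. The group means of the members lay at 337 or above, against a background of 22.8. The part of signal level in their calls was not tested.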

Other observations

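The E-box CACGTG was also counted in the promoter windows of array genes outside the set. It was in 85 of 633 windows (13.4%) of genes that fell, in 82 of 958 (8.56%) of genes that rose and in 656 of 6732 (9.74%) of genes that did not pass. Among the members it was in 11 of 28 that fell and in 3 of 6 that did not pass. In the 89 matched windows of the other pathway genes it was found in 26 (29.2%). Those of them that were tested also count among the array genes outside the set above. These are descriptions with no test.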
